A study of Mus musculus with 13 samples.

Results

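The cholesterol and fatty acid synthesis genes described here were 32 mouse genes chosen by symbol for their place in the pathway. Earlier results of these data were known when they were chosen. Shares of members set beside shares of all genes therefore describe this list and are not an independent test. They were 7 enzymes of the mevalonate pathway, 11 enzymes of sterol synthesis, 5 genes that control the SREBP transcription factors, 8 enzymes of fatty acid synthesis, elongation and desaturation, and the sterol transporter Stard4. All 32 were found by Ensembl identifier among the 55642 genes of the count table, and all 32 were among the 16848 genes with enough counts to be tested.

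RNA was sequenced from C2C12 cells, an established line of mouse myoblasts that leaves the cell cycle and forms muscle cells when its serum is changed. The study asked which transcripts depend on YBX3, a Y-box protein that binds RNA and DNA, before differentiation and just after it was started. Cells received either nontargeting siRNAs (control KD) or a pool of 4 siRNAs to YBX3 (YBX3 KD), and all were collected 48 h after transfection. At 0 day the cells were proliferating in medium with 10% fetal bovine serum throughout, and at 1 day they had been moved after 24 h to differentiation medium with 10% horse serum for the remaining 24 h. There were 4 libraries of control KD at 0 day (replicates A to D), 2 of control KD at 1 day (C and D), 4 of YBX3 KD at 0 day (A to D) and 3 of YBX3 KD at 1 day (B to D). The kind of serum changed together with the day, so the serum and the start of differentiation cannot be told apart.

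Cells build cholesterol from acetyl-CoA through mevalonate and isoprenoids to squalene, and from squalene through a series of sterols. The enzymes of this route and those of fatty acid synthesis are switched on by the transcription factors that Srebf1 and Srebf2 encode, which are held in the endoplasmic reticulum by Scap and the Insig proteins when sterols are plentiful and are released by cleavage in the Golgi when sterols are scarce. In muscle precursor cells these lipids are needed for the membranes of dividing and fusing cells, and the same pathway supplies the isoprenoid groups that anchor many signalling proteins.

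The total count per library was 43604528, 43993711, 62261197 and 33451547 in control KD replicates A to D at 0 day and 52145571 and 37511347 in control KD replicates C and D at 1 day. It was 46843516, 71811371, 45095572 and 41868570 in YBX3 KD replicates A to D at 0 day and 56778578, 36819569 and 39296290 in replicates B to D at 1 day. Levels are given as CPM, the count of a gene relative to the size of its library after scaling by edgeR's TMM factors, always in the order of the replicate letters. Fold changes are log2 values fitted by edgeR with their standard errors, and a negative value means lower in YBX3 KD (or lower at 1 day). A gene was counted as lower or higher by test where the p of edgeR's quasi-likelihood test, adjusted by Benjamini-Hochberg over all genes tested, was under 0.05. The labels call the libraries biological replicates, and the p-values measure the spread between these libraries.

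Ybx3 itself was depleted in every YBX3 KD library. Its level was 316, 311, 334 and 265 CPM in control KD at 0 day and 347 and 294 CPM in control KD at 1 day. In YBX3 KD it was 46.6, 40.3, 42.9 and 37.9 CPM at 0 day and 47.0, 71.5 and 28.7 CPM at 1 day, so that no YBX3 KD library came near a control KD library. The fitted log2 difference over both days was -2.81 ± 0.17 (edgeR, adjusted p = 5.26e-06), lower in 6 of 6 pairs of libraries with the same letter and day, and -2.79 without the 4 libraries of replicate D (edgeR, adjusted p = 8.42e-06). At 0 day alone it was -2.87 and at 1 day -2.71. Ybx3 lies at chr6:131341810-131365448 on the minus strand (GRCm39).

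The knockdown rests on the 4 siRNAs that the study lists, so their antisense strands are shown with bases 2 to 8, the seed, in capitals. The complement of each strand was found in annotated Ybx3 transcripts: in 21, 19, 20 and 20 of 24 for siRNAs 05, 06, 07 and 08. For siRNA 07 the sense strand as listed did not complement the antisense strand.
siRNA 05: uAUAGUUGuagggacgucg
siRNA 06: aUAGUAGCcgcgucuguac
siRNA 07: uCCAUAUCcauuucugacg
siRNA 08: aUACUUGCguggguuguuu
Sites that match a seed stood in the annotated 3' untranslated regions of Mvk and Elovl6 for siRNA 05, of Lss for 06, of Cyp51, Fasn and Scd1 for 07, and of Hmgcs1, Scd1 and Stard4 for 08. These were 6.25%, 3.12%, 9.38% and 9.38% of the 32 members, against 6.63%, 4.52%, 5.83% and 6.16% of the 20743 genes with such a region. Whether these seeds acted on the members was not tested.

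Replicate D stood apart from replicates A to C in both treatments and on both days, and the synthesis genes were among those that did so. In 19 of the 32 members (59.4%) replicate D had the highest level in all 4 groups, against 21.9% of the genes tested. Fdps at 0 day, for example, was at 178, 199.6, 187 and 289 CPM in control KD and at 141, 140.0, 119.8 and 203 CPM in YBX3 KD, with replicate D on top in each. At 1 day it was at 118 and 252 CPM in control KD and 65.1, 84.0 and 283 CPM in YBX3 KD, again with D on top. Across all genes tested, the deviations from the group means of 2 libraries that were both replicate D correlated at 0.409 to 0.730, and those of other libraries that shared a letter at 0.117 to 0.358. Control KD at 1 day has only C and D, whose deviations mirror each other by construction, and the 3 pairs of D libraries from the other groups correlated at 0.576, 0.626 and 0.730. The numbers of members called are therefore given with and without the 4 libraries of replicate D. Without them, 4 control KD and 5 YBX3 KD libraries remained, with 1 control KD library at 1 day.

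**Figure D1:**
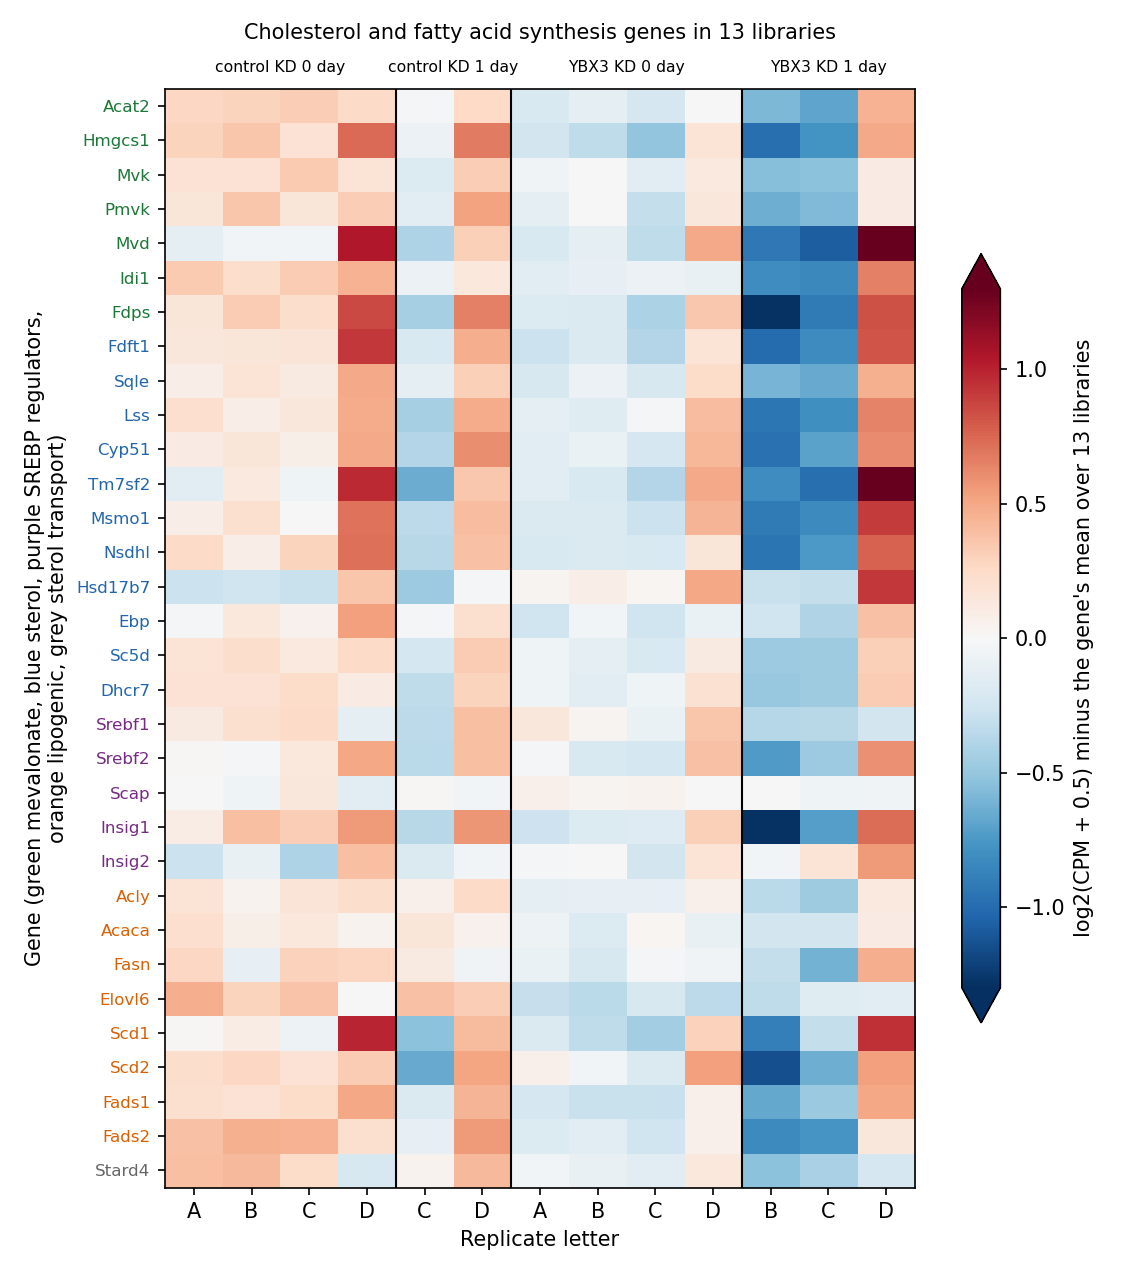
Level of each of the 32 members in each of the 13 libraries, as log2(CPM + 0.5) minus the gene's mean over the libraries, with libraries in columns by group and members in lines by role. Replicate D is high for most mevalonate and sterol genes in all 4 groups, and YBX3 KD replicates B and C at 1 day are low.

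Summed over the 32 members, the level was 6814, 6754, 6791 and 8169.7 CPM in control KD at 0 day and 5727, 5488, 5234 and 7367 CPM in YBX3 KD at 0 day. At 1 day the sum was 4921 and 7852 CPM in control KD and 3568, 4075 and 8696 CPM in YBX3 KD. The lowest and the highest sum of all 13 libraries thus both came from YBX3 KD at 1 day, replicate B being the lowest and replicate D the highest. Replicate B of that group held the lowest level of 20 members and replicate C that of 8, whereas its replicate D held the highest level of 14.

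Compared between genes per kilobase of transcript, mean levels in control KD at 0 day ran from 391 CPM per kb for Scd2 to 7.98 CPM per kb for Mvk. After Scd2 came Fdps (163), Scd1 (121), Sqle (101) and Srebf2 (85.8 CPM per kb). The stearoyl-CoA desaturase genes, farnesyl diphosphate synthase and squalene epoxidase were thus the most abundant synthesis transcripts of proliferating myoblasts for their length. Elovl6 (15.4), Stard4 (11.8) and Hsd17b7 (9.99 CPM per kb) lay in the lower part of the order. Some members share a locus: Fads1 (chr19:10160167-10174241, plus strand) and Fads2 (chr19:10038130-10079203, minus strand) are neighbours, as are Scd2 (chr19:44281613-44295303) and Scd1 (chr19:44382894-44399154; GRCm39).

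Promoters are shown for 3 members that the results turn on: Hmgcs1 and Elovl6, which lay lower in YBX3 KD, and Hsd17b7, which lay higher. They are RefSeq sequences of build GRCm38.p6 that end at the annotated start or, for Elovl6 and Hsd17b7, before the stretch that an annotated transcript holds. Capitals mark the sterol regulatory element TCACCCCAC, the E-box CACGTG and CCAAT, on either strand; an inverted CCAAT, the Y-box, reads ATTGG. The regions are chr13:119690101-119690350 (plus strand), chr3:129532136-129532354 (plus strand) and chr1:169969245-169969455 (minus strand).
Hmgcs1: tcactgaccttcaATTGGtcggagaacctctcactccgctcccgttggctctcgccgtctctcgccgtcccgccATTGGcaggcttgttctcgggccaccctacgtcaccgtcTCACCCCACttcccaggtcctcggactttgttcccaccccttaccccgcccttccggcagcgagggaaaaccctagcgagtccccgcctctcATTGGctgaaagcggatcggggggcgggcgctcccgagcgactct
Elovl6: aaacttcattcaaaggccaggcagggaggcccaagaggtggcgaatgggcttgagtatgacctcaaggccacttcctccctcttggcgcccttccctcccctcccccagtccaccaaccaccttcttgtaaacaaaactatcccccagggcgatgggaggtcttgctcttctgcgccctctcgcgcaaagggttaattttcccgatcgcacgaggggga
Hsd17b7: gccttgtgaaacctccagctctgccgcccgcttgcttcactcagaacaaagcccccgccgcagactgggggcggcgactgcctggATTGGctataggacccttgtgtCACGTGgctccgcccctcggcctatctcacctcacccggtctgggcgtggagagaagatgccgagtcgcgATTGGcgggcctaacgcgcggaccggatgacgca
In RefSeq promoters matched to 25 of the 32 members, the 250 bases before the start were searched on both strands. Not matched were Fdps, Fdft1, Sqle, Scd1, Scd2, Fads1 and Stard4. TCACCCCAC was found in 1 of 25 (4%), Hmgcs1, against 0.555% of 27025 genes, and the shorter CACCCCAC that it contains in 2 (8%), Acat2 and Hmgcs1, against 2.98%. CACGTG was found in 5 (20%), Hsd17b7, Sc5d, Dhcr7, Scap and Insig1, against 6.86%. CCAAT was found in 19 (76%) against 37.5%, and the GC box GGGCGG in 21 (84%) against 35.4%. These matches describe the letters only.

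Over both days, most cholesterol and fatty acid synthesis transcripts had lower fitted levels in YBX3 KD than in control KD, but with all 13 libraries only Elovl6 passed the test. The fatty acid elongase Elovl6 fell by 0.58 on the log2 scale (standard error 0.074, edgeR adjusted p = 0.00223; 6 control KD and 7 YBX3 KD libraries). Of the 32 members, 29 had a negative and 3 a positive fitted difference, with a median of -0.27, while the median of all genes tested was 0.0008. That median was -0.46 without YBX3 KD replicate D of 1 day and lay between -0.34 and -0.22 without any other single library. Without all of replicate D it was -0.32, and 30 members were negative. Without replicate D, 23 members fell and 1, Hsd17b7, rose, against 6.68% of the genes tested lower and 5.8% higher. Those that fell were mevalonate, sterol and lipogenic genes with Insig1 and Stard4. Fewer cells making a transcript and less of it per cell cannot be told apart in bulk RNA.

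The 1 member that passed, of 32, compares with 2.34% of the genes tested in either direction (394 of 16848) and 1.04% in the lower direction. Since the members were chosen with earlier results known, this and the shares below are descriptive. Under the thresholds the study used, a fold change over 1.3 with an adjusted p under 0.001, edgeR called 0 members, against 0.113% of the genes tested (19). At an unadjusted p under 0.05, edgeR gave 10 of 32 members (31.2%) and 15.6% of the genes tested (2636). DESeq2 called 5 members at an adjusted p under 0.05 (Elovl6, Fads2, Stard4, Acaca and Acly), against 7% of the genes tested (1179), and limma-voom with sample weights called 20, against 18.3% (3088). With a block for the letter, edgeR called 5 members (Elovl6, Hmgcs1, Fads2, Pmvk and Acly), all of them lower, against 4.38% of the genes tested called lower and 5.4% called higher. The 4 of these other than Elovl6 were named after their values were seen. DESeq2 with the block called 14 members lower, those 5 with Acat2, Mvk, Fdft1, Sqle, Ebp, Sc5d, Acaca, Fads1 and Stard4, and Hsd17b7 higher, against 17.6% of the genes tested (2961) in either direction.

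Without replicate D, the 23 of 32 members that fell compare with 6.68% of 17271 genes tested, and the 1 that rose with 5.8%. Adding the block left 22 lower (6.73% of genes) and 1 higher (5.15%): Fasn was no longer called. Under the study's thresholds, 6 members fell without D, Acat2, Hmgcs1, Elovl6, Fads1, Fads2 and Stard4, against 0.591% of the genes. The single libraries that moved the count were YBX3 KD replicate D at 1 day, without which 8 members were called (Acat2, Hmgcs1, Idi1, Acly, Acaca, Elovl6, Fads1 and Fads2, 25% against 2.39% of the genes), and control KD replicate D at 0 day, without which 2 were called (Elovl6 and Stard4, 6.25% against 5.11% of the genes). Leaving out any other library left Elovl6 as the 1 member called.

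The size of the fitted difference over both days moved by over 1.5 times, or its sign turned, on leaving out at least 1 single library in 20 of the 32 members. The 12 that moved less were Acat2, Hmgcs1, Mvk, Pmvk, Ebp, Sc5d, Acly, Acaca, Elovl6, Fads1, Fads2 and Stard4. YBX3 KD replicate D of 1 day moved 18 members, control KD replicate D of 1 day 9, control KD replicate D of 0 day, control KD replicate C of 1 day and YBX3 KD replicate B of 1 day 7 each, and every other library 1 to 4. Without YBX3 KD replicate D of 1 day, Fdps was at -0.76, Fdft1 at -0.72, Insig1 at -0.66, Nsdhl at -0.60 and Idi1 at -0.58. Sqle was at -0.43, Fasn at -0.35, Srebf2 at -0.33 and Dhcr7 at -0.29. All of these were further from 0 than with all libraries, and Insig2, at 0.10, was nearer. Other libraries moved some of these the other way. Without control KD replicate D of 1 day, Srebf2 was at -0.06, Dhcr7 at -0.10 and Insig1 at -0.25. Srebf2 was at -0.09 without control KD replicate D of 0 day or YBX3 KD replicate B of 1 day. It was at -0.26 without control KD replicate C of 1 day. Insig2 was at 0.29 without control KD replicate D of 0 day.

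**Figure D2:**
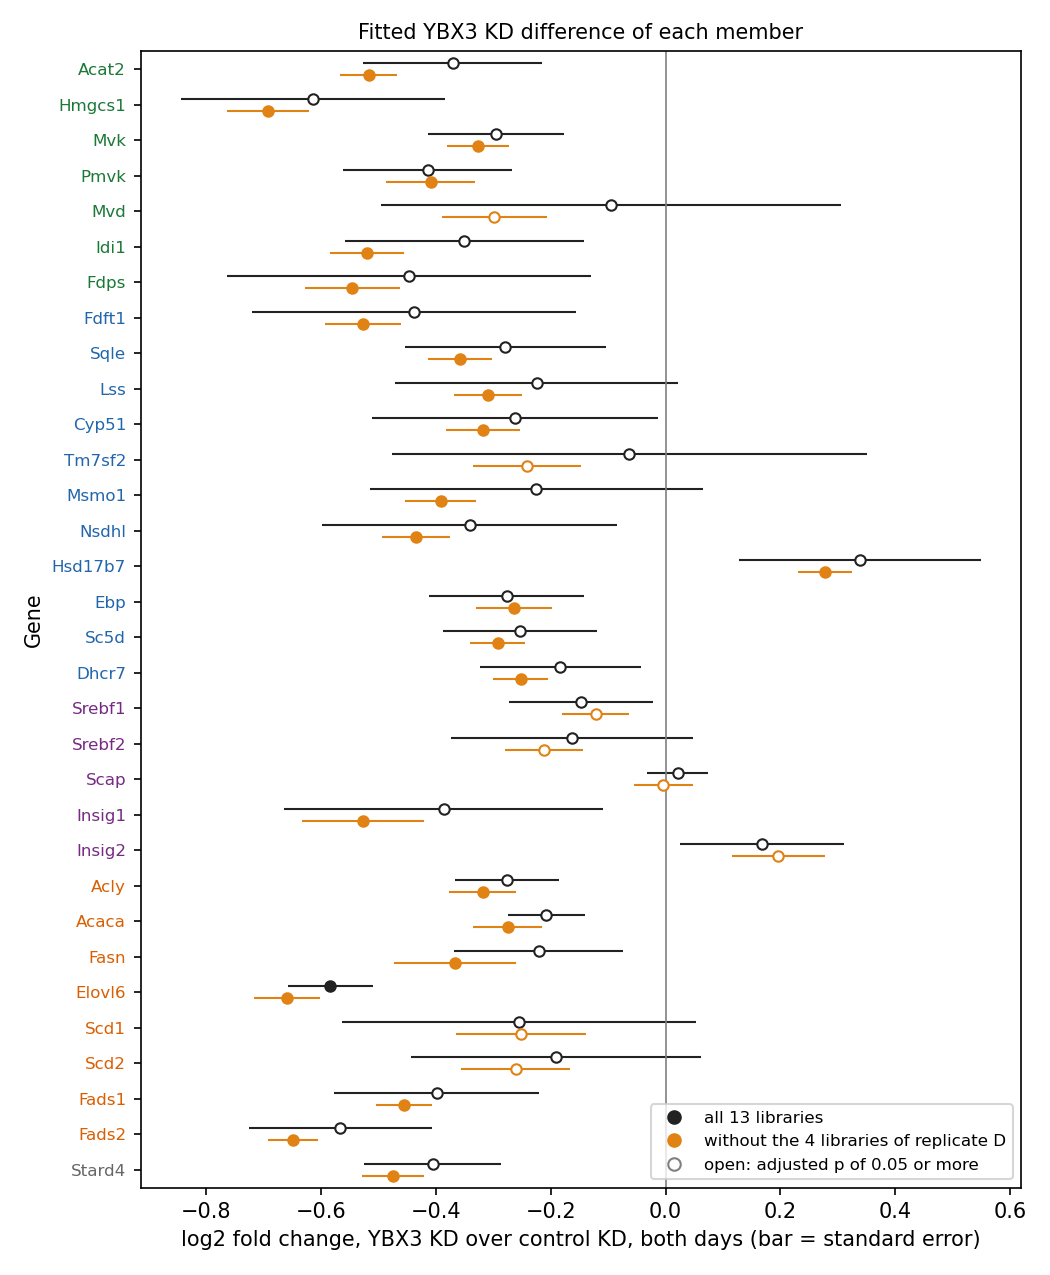
Fitted log2 fold change of YBX3 KD against control KD over both days for each member, with bars of 1 standard error, from all 13 libraries (black) and without replicate D (orange). Filled points have an adjusted p under 0.05; with all libraries Elovl6 is the only filled point, and the bars are shorter without D for all 32.

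The mevalonate genes carry carbon from acetyl-CoA to farnesyl diphosphate, and all 7 lay lower in YBX3 KD over both days (median -0.37). None of the 7 passed edgeR's test and DESeq2 called 0. By edgeR 4 had an unadjusted p under 0.05, against 15.6% of the genes tested. Without replicate D the median was -0.52 and 6 of 7 fell, Mvd being the exception, against 6.68% of the genes tested. Acat2, which joins acetyl-CoA units at the entry of the pathway, was at 117, 118, 121 and 115 CPM in control KD and 84.3, 89.5, 83.5 and 97.2 CPM in YBX3 KD at 0 day. At 1 day Acat2 was at 95.9 and 116 CPM against 64.4, 60.2 and 132 CPM. The groups did not overlap at 0 day, and at 1 day YBX3 KD replicates B and C were the lowest of all 13 libraries and replicate D the highest. The difference was -0.37 ± 0.16 (edgeR, adjusted p = 0.267; lower in 5 of 6 pairs) with all libraries and -0.52 ± 0.049 (edgeR, adjusted p = 0.000429) without D.

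Hmgcs1, the synthase that makes HMG-CoA, was at 202, 212, 187 and 275 CPM in control KD and 139.7, 132, 115 and 186 CPM in YBX3 KD at 0 day. The groups did not overlap on that day. At 1 day Hmgcs1 was at 157 and 263 CPM against 83.4, 96.0 and 232 CPM, and replicate D was high in both treatments. Its difference over both days was -0.61 ± 0.23 (edgeR, adjusted p = 0.204; lower in 6 of 6 pairs). It passed with the block (-0.61 ± 0.12, edgeR adjusted p = 0.0138) and without D (-0.69 ± 0.071, edgeR adjusted p = 0.000623).

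Mvk and Pmvk add phosphates to mevalonate, and Mvd turns the product into isopentenyl diphosphate. Mvk was at 38.2, 38.1, 42.5 and 38.0 CPM in control KD and 32.4, 33.6, 30.3 and 36.7 CPM in YBX3 KD at 0 day, and at 29.6 and 41.8 CPM against 22.7, 23.0 and 36.1 CPM at 1 day. Its treatments were apart at 0 day and overlapped at 1 day. The difference was -0.29 ± 0.12 (edgeR, adjusted p = 0.238; lower in 6 of 6 pairs) and -0.33 ± 0.054 without D (edgeR, adjusted p = 0.00494). Pmvk ranged from 18.3 to 29.3 CPM in control KD and from 12.8 to 22.5 CPM in YBX3 KD, with a difference of -0.41 ± 0.15 (edgeR, adjusted p = 0.179), and it was called with the block (-0.41, edgeR adjusted p = 0.0292) and without D (-0.41, edgeR adjusted p = 0.00904). Mvd was at 22.8, 24.2, 24.2 and 51.5 CPM in control KD and 21.6, 22.8, 19.6 and 35.0 CPM in YBX3 KD at 0 day, and at 18.6 and 30.8 CPM against 12.8, 11.5 and 65.2 CPM at 1 day. Replicate D reached more than any other letter in each group, and Mvd gave -0.09 ± 0.40 (edgeR, adjusted p = 0.933) with and -0.30 ± 0.091 (edgeR, adjusted p = 0.0601) without it. The value was 0.15 without control KD replicate D of 0 day and 0.01 without YBX3 KD replicate C of 1 day.

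Idi1 turns isopentenyl into dimethylallyl diphosphate, and Fdps joins these units to farnesyl diphosphate. Idi1 was at 109.9, 102, 109 and 119 CPM in control KD and 78.6, 80.6, 82.2 and 81.4 CPM in YBX3 KD at 0 day, with no overlap. At 1 day it was at 82.6 and 95.9 CPM against 49.6, 48.5 and 137 CPM, where YBX3 KD replicates B and C were the lowest of all libraries and replicate D the highest. Idi1 differed by -0.35 ± 0.21 (edgeR, adjusted p = 0.458; lower in 5 of 6 pairs) and without D by -0.52 ± 0.065 (edgeR, adjusted p = 0.00141). The Fdps levels given above yielded -0.45 ± 0.32 (edgeR, adjusted p = 0.547; lower in 5 of 6 pairs) with all libraries and -0.55 ± 0.082 (edgeR, adjusted p = 0.00334) without D.

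**Figure D3:**
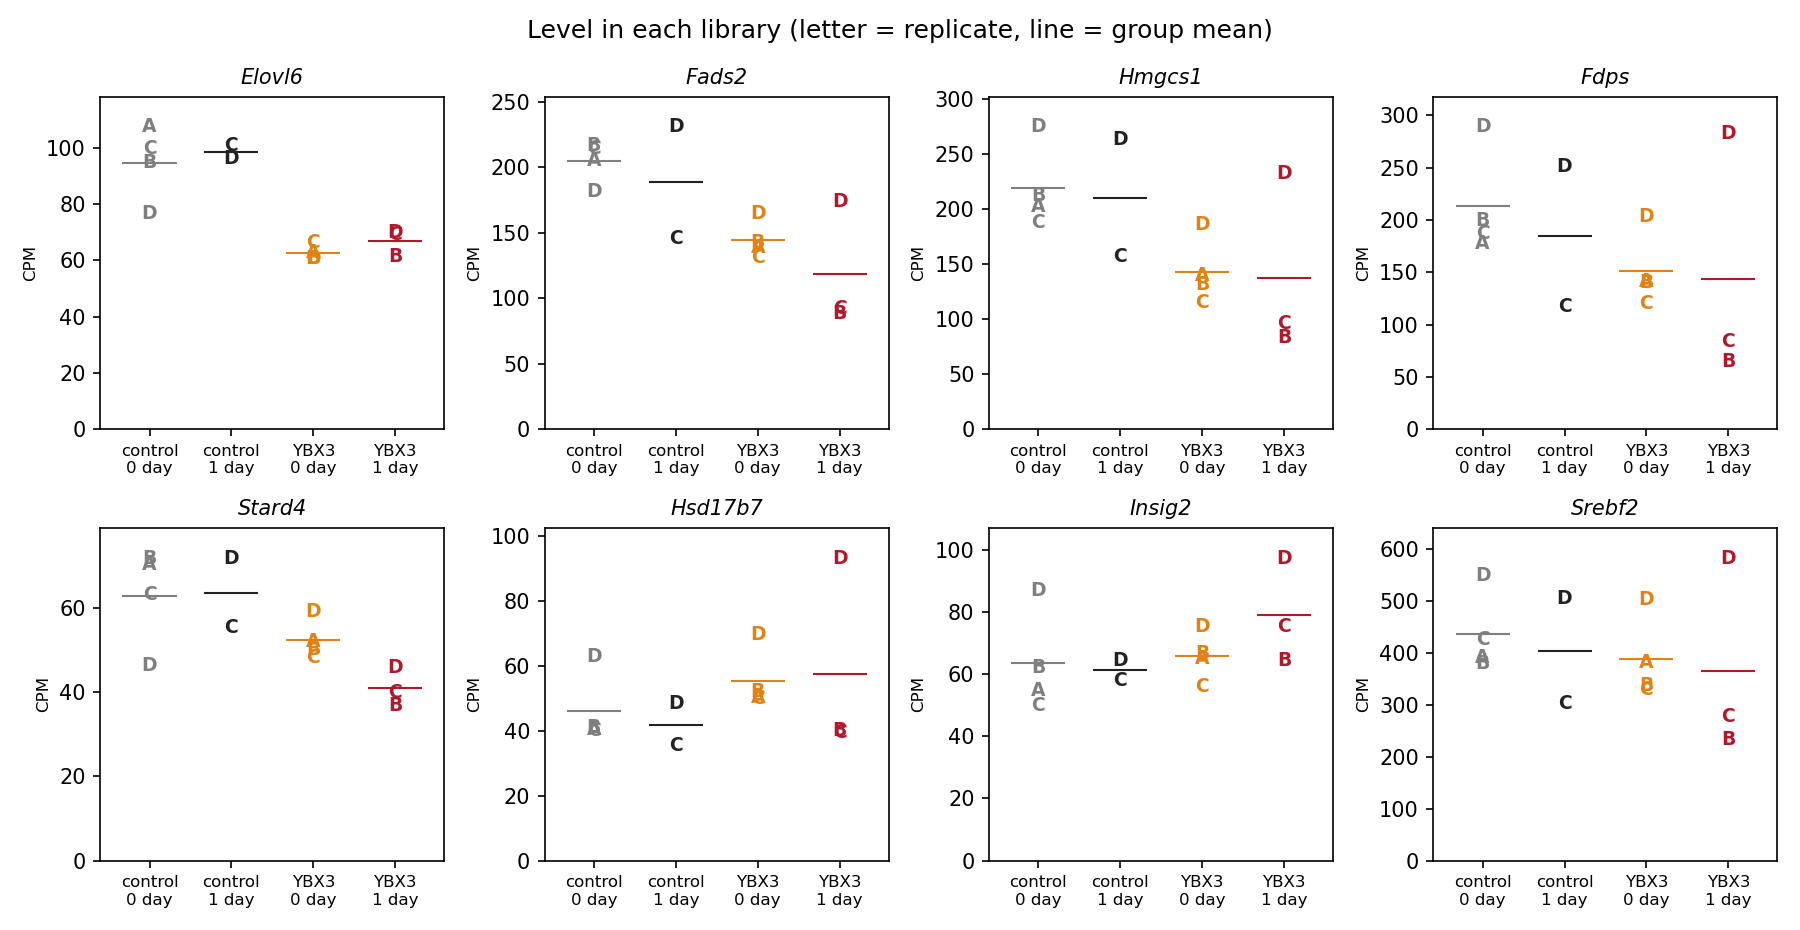
Level in CPM (linear axis) of 8 members in each library, grouped by siRNA and day, each point marked by its replicate letter. Elovl6 in YBX3 KD lies below control KD in all libraries, Hsd17b7 lies above within each letter and day, and replicate D sits at the top of most groups for Hmgcs1, Fdps and Srebf2.

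The sterol genes, which turn farnesyl diphosphate into squalene and squalene into cholesterol, lay lower in 10 of 11 cases over both days (median -0.25). With all libraries edgeR called 0 of them and none had an unadjusted p under 0.05, and DESeq2 called 0. Without replicate D the median was -0.31, 9 fell and 1 rose, against 6.68% and 5.8% of the genes tested. The squalene synthase gene Fdft1 gave -0.53 ± 0.066 (edgeR, adjusted p = 0.0014) without D, the largest negative value of the 11, and Nsdhl, which removes a carbon at the C4 position, gave -0.43 ± 0.059 (edgeR, adjusted p = 0.00212). With all libraries the same genes were at -0.44 ± 0.28 and -0.34 ± 0.26 (edgeR, adjusted p = 0.503 and 0.576).

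At 0 day Fdft1 was at 93.8, 94.5, 95.5 and 160.2 CPM in control KD and 69.7, 74.2, 64.8 and 96.2 CPM in YBX3 KD, and at 1 day at 73.6 and 118 CPM against 42.2, 48.0 and 149.7 CPM. Only replicate D of YBX3 KD reached the control KD levels at 0 day. Sqle, the epoxidase of squalene and a rate-controlling step, ranged from 259 to 342 CPM in control KD and from 210.0 to 286 CPM in YBX3 KD at 0 day, and without D it fell (-0.36 ± 0.056, edgeR adjusted p = 0.00399). Lss, which closes the ring system to lanosterol, gave -0.22 with all libraries and -0.31 ± 0.059 without D (edgeR, adjusted p = 0.00955). Cyp51, the demethylase of lanosterol, gave -0.26 and -0.32 ± 0.065 (edgeR, adjusted p = 0.0124), and Msmo1, the C4 oxidase, -0.22 and -0.39 ± 0.062 (edgeR, adjusted p = 0.0041). Each of these 5 genes was lower in 5 of 6 pairs, the exception being replicate D at 1 day. Without control KD replicate D of 1 day Lss was at -0.08, Cyp51 at -0.09 and Msmo1 at -0.14, and without YBX3 KD replicate D of 1 day they were at -0.45, -0.47 and -0.52. Msmo1 was also at -0.11 without control KD replicate D of 0 day.

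Among the later enzymes, Ebp, the sterol isomerase, gave -0.28 with all libraries and -0.26 ± 0.066 without D (edgeR, adjusted p = 0.0288). Sc5d, a desaturase, gave -0.25 and -0.29 ± 0.047 (edgeR, adjusted p = 0.00465) and was lower in 6 of 6 pairs. Dhcr7, the last enzyme of one branch, gave -0.18 and -0.25 ± 0.048 (edgeR, adjusted p = 0.00927), lower in 4 of 6 pairs. Tm7sf2, a sterol reductase and the least abundant member in CPM, was at 8.96, 10.9, 9.47 and 19.9 CPM in control KD and 8.90, 8.58, 7.48 and 14.1 CPM in YBX3 KD at 0 day, and at 6.13 and 12.8 against 5.44, 4.78 and 27.2 CPM at 1 day. Tm7sf2 did not pass with D (-0.06 ± 0.41, edgeR adjusted p = 0.961) or without (-0.24 ± 0.094, edgeR adjusted p = 0.126), and its sign turned on leaving out control KD replicate D of 0 day (0.16), YBX3 KD replicate C of 0 day (0.02), or YBX3 KD replicate B (0.02) or C (0.03) of 1 day.

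Hsd17b7, a reductase of the C4 demethylation complex that can also act on oestrone, went the other way. It was at 40.4, 41.0, 40.0 and 63.0 CPM in control KD and 50.2, 52.0, 50.1 and 69.6 CPM in YBX3 KD at 0 day, and at 35.3 and 48.5 CPM against 40.1, 39.5 and 93.3 CPM at 1 day. Within each letter and day the YBX3 KD library was the higher one, in 6 of 6 pairs, although the groups overlapped on both days, with replicate D high in all of them. The difference was 0.34 ± 0.21 with all libraries (edgeR, adjusted p = 0.485) and 0.28 ± 0.047 without D (edgeR, adjusted p = 0.00548). Within pairs it was 0.94 in replicate D at 1 day and 0.14 to 0.34 in the other 5, and the fitted difference was 0.15 without YBX3 KD replicate D of 1 day. With its promoter printed above, it was the only member that rose by the test without D, and Insig2 and Scap were the other members above 0 with all libraries.

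The 5 SREBP regulators had no shared direction over both days, with 3 lower and 2 higher (median -0.15, without D -0.12), 0 called by edgeR or DESeq2 and none at an unadjusted p under 0.05. Srebf2, the transcription factor best known for the cholesterol genes, was at 390.0, 379, 425 and 548 CPM in control KD and 381, 337, 329 and 503 CPM in YBX3 KD at 0 day, and at 303 and 505 CPM against 232, 278 and 582 CPM at 1 day. Replicate D was the highest in each group, and the treatments overlapped on both days. The difference was -0.16 ± 0.21 with all libraries (edgeR, adjusted p = 0.757) and -0.21 ± 0.068 without D (edgeR, adjusted p = 0.0722), lower in 5 of 6 pairs. Srebf1, the factor best known for fatty acid synthesis, was at 103, 109.8, 113 and 87.5 CPM in control KD and 105, 97.0, 89.2 and 122 CPM in YBX3 KD at 0 day, and at 75.0 and 124 CPM against 73.3, 73.7 and 80.4 CPM at 1 day. Its highest and lowest libraries were both at 1 day, control KD replicate D and YBX3 KD replicate B, and it gave -0.15 ± 0.13 (edgeR, adjusted p = 0.622) and without D -0.12 ± 0.058 (edgeR, adjusted p = 0.206). Without control KD replicate D of 1 day the Srebf1 value was 0.0045.

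Insig1, itself a sterol-responsive gene whose protein retains Scap, was at 69.1, 84.7, 80.4 and 94.8 CPM in control KD and 53.4, 57.1, 57.4 and 80.0 CPM in YBX3 KD at 0 day, and at 50.2 and 96.4 CPM against 26.2, 39.0 and 107 CPM at 1 day. YBX3 KD replicates B and C at 1 day were the lowest of all libraries and replicate D of the same group the highest. Insig1 differed by -0.39 ± 0.28 (edgeR, adjusted p = 0.555; lower in 5 of 6 pairs), and without D it fell (-0.53 ± 0.11, edgeR adjusted p = 0.0119), the only 1 of the 5 regulators that did. Insig2, its relative, was at 54.7, 62.2, 50.1 and 87.1 CPM in control KD and 65.0, 66.6, 56.1 and 75.3 CPM in YBX3 KD at 0 day, and at 58.1 and 64.6 CPM against 64.5, 75.3 and 97.4 CPM at 1 day. It lay higher in YBX3 KD in 5 of 6 pairs without passing the test (0.17 ± 0.14, edgeR adjusted p = 0.621; without D 0.20 ± 0.081, edgeR, adjusted p = 0.147). Scap was nearly level, at 76.8, 73.4, 84.3 and 69.4 CPM and 80.1, 78.4, 79.0 and 76.9 CPM at 0 day and 77.3 and 74.4 CPM and 76.5, 73.3 and 74.0 CPM at 1 day. Its difference was 0.02 ± 0.053 (edgeR, adjusted p = 0.887), and it was -0.0038 without D (edgeR, adjusted p = 0.969) and -0.0071 without control KD replicate D of 0 day.

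All 8 lipogenic genes lay lower over both days (median -0.27). By the test 1 fell with all libraries, 3 with the block and 6 without replicate D (median -0.34). Of the genes tested, 1.04%, 4.38% and 6.68% were called lower in the same fits. Elovl6, which lengthens palmitate to stearate (ENSMUSG00000041220, chr3:129326004-129432144, plus strand, GRCm39), was at 107, 94.7, 99.7 and 76.7 CPM in control KD and 62.6, 60.5, 66.5 and 60.7 CPM in YBX3 KD at 0 day. At 1 day Elovl6 was at 101 and 96.1 CPM against 61.4, 69.1 and 69.7 CPM. Every YBX3 KD library lay below every control KD library, replicate D included, which held for 1 of 32 members and for 1.08% of the genes tested in that direction. The difference was -0.58 ± 0.074 with all libraries and -0.66 ± 0.058 without D (edgeR, adjusted p = 0.000263), and it was negative in 6 of 6 pairs. At an adjusted p under 0.05 Elovl6 was called in 25 of 25 settings of the analysis, with log2 values from -0.66 to -0.54. By edgeR it did not reach the study's thresholds with all libraries.

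Fads2, the delta-6 desaturase of polyunsaturated fatty acids, was at 205, 217, 215 and 182 CPM in control KD and 139, 142, 132 and 165 CPM in YBX3 KD at 0 day, and at 146 and 231 CPM against 88.2, 92.5 and 174 CPM at 1 day. The treatments did not overlap at 0 day, and at 1 day only YBX3 KD replicate D was above a control KD library. The difference was -0.57 ± 0.16 (edgeR, adjusted p = 0.0911; lower in 6 of 6 pairs), and it was called with the block (-0.57 ± 0.13, edgeR adjusted p = 0.0295) and without D (-0.65 ± 0.044, edgeR adjusted p = 5.94e-05). Its neighbour Fads1, the delta-5 desaturase, was at 185, 182, 189 and 227 CPM in control KD and 138, 130.3, 131 and 168 CPM in YBX3 KD at 0 day, and at 141 and 217 CPM against 100.4, 114 and 226 CPM at 1 day. Fads1 was also apart at 0 day, and it differed by -0.40 ± 0.18 (edgeR, adjusted p = 0.301; lower in 5 of 6 pairs) and by -0.46 ± 0.049 without D (edgeR, adjusted p = 0.00077).

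Acly makes cytosolic acetyl-CoA from citrate, Acaca carboxylates it to malonyl-CoA and Fasn builds palmitate. Acly ranged from 289 to 334 CPM in control KD and from 204 to 306 CPM in YBX3 KD, and was lower in 6 of 6 pairs. It gave -0.28 ± 0.091 (edgeR, adjusted p = 0.145), and was called with the block (-0.26, edgeR adjusted p = 0.0346) and without D (-0.32, edgeR adjusted p = 0.00792). Acaca ranged from 154 to 173 CPM in control KD and from 125 to 159.7 CPM in YBX3 KD (-0.21 ± 0.068, edgeR adjusted p = 0.143; without D -0.27, adjusted p = 0.0167). Fasn ranged from 589 to 782 CPM in control KD and from 413 to 879 CPM in YBX3 KD, overlapping throughout. It gave -0.22 ± 0.15 (edgeR, adjusted p = 0.519), and its call without D (-0.37 ± 0.11, edgeR adjusted p = 0.0492) was lost with the block (edgeR, adjusted p = 0.0916).

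The stearoyl-CoA desaturases, which put the double bond into oleate, did not pass edgeR's test with or without D. Scd2 was at 2099, 2160.0, 2035 and 2239 CPM in control KD and 1868, 1748, 1565 and 2589.7 CPM in YBX3 KD at 0 day, and at 1130.4 and 2546 CPM against 807, 1151 and 2578 CPM at 1 day. At 0 day YBX3 KD replicate D was the highest library of all 13 and its replicates A to C lay below control KD, while at 1 day the treatments were almost level within replicate D. Scd2 gave -0.19 ± 0.25 (edgeR, adjusted p = 0.764), without D -0.26 ± 0.096 (edgeR, adjusted p = 0.105), and without control KD replicate D of 1 day 0.0064. Scd1 gave -0.26 ± 0.31 (edgeR, adjusted p = 0.738) and -0.25 ± 0.11 (edgeR, adjusted p = 0.182). Scd1 was at -0.05 without control KD replicate D of 0 day, -0.43 without control KD replicate C of 1 day and -0.51 without YBX3 KD replicate D of 1 day. Its levels ranged from 334 to 962 CPM in control KD and from 260.2 to 936 CPM in YBX3 KD.

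Stard4 carries cholesterol between membranes and is itself a known SREBP target. Its level was 70.2, 71.6, 63.2 and 46.4 CPM in control KD and 52.1, 50.2, 48.2 and 59.0 CPM in YBX3 KD at 0 day, and 55.4 and 71.8 CPM against 36.7, 39.9 and 45.9 CPM at 1 day. Control KD replicate D at 0 day was the exception, below all YBX3 KD libraries of that day. All YBX3 KD libraries lay below all control KD libraries at 1 day, and at 0 day once D was left out. The difference was -0.41 ± 0.12 (edgeR, adjusted p = 0.101; lower in 5 of 6 pairs) and without D -0.47 ± 0.054 (edgeR, adjusted p = 0.000987).

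The pairs of libraries with the same letter and day show where replicate D differed. YBX3 KD was lower for 28, 29, 30 and 26 of the 32 members in pairs A to D at 0 day, with medians of -0.28, -0.31, -0.35 and -0.23. At 1 day it was lower for 28 members in pair C (median -0.38) and for 10 in pair D (median 0.15). In the same 6 pairs the median over all genes tested stayed between -0.01 and 0.02. Pair D at 1 day was thus the only 1 of 6 in which most members were higher in YBX3 KD.

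**Figure D4:**
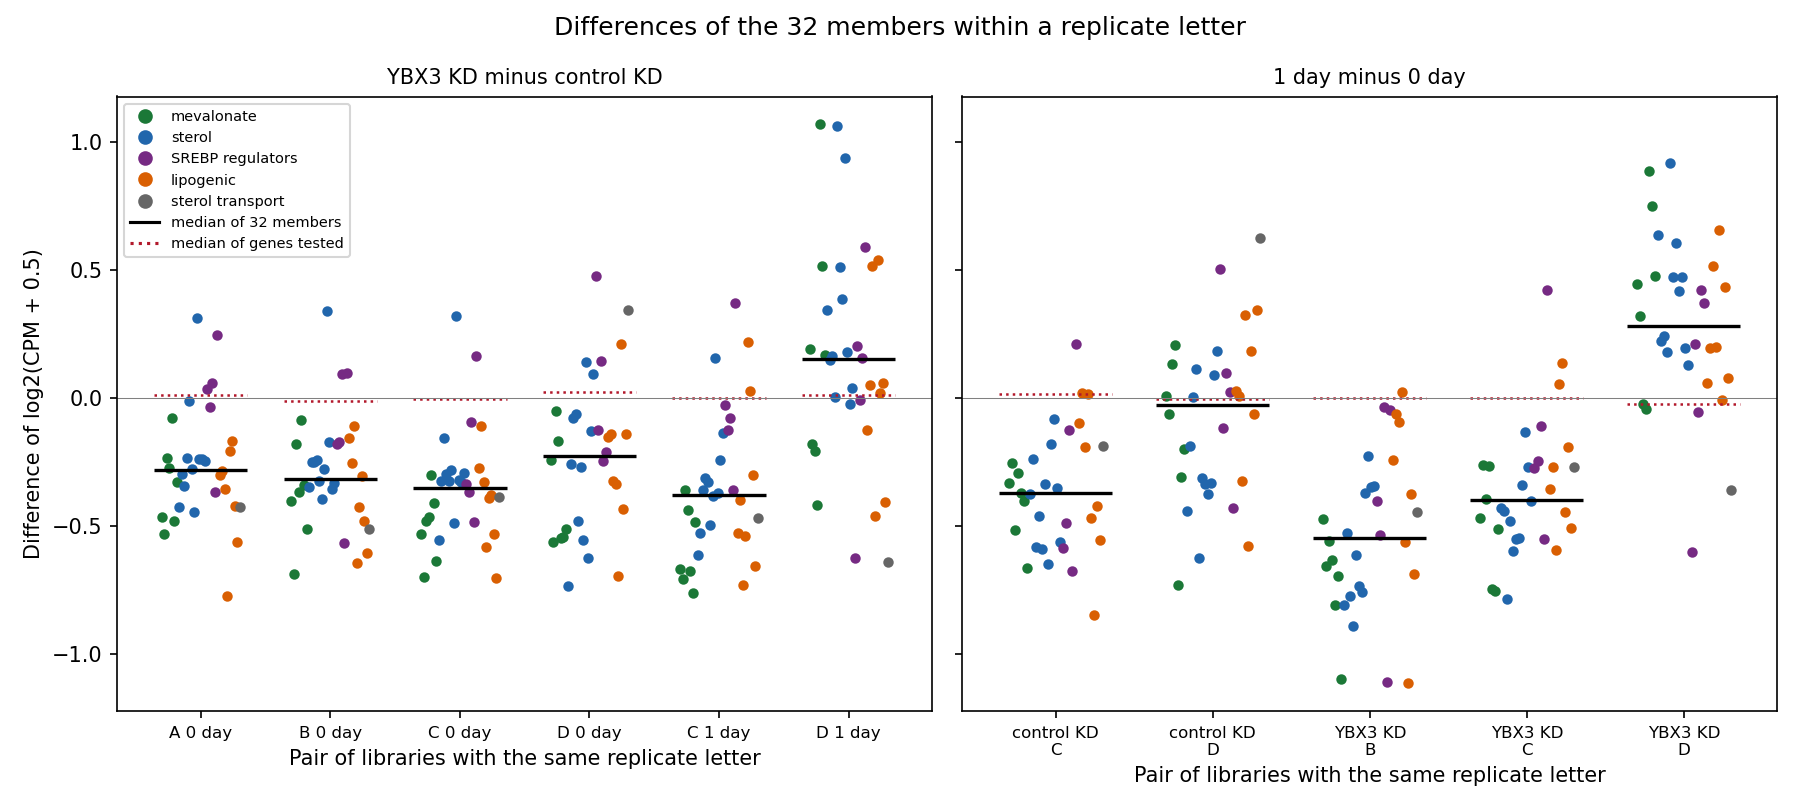
Difference of log2(CPM + 0.5) between YBX3 KD and control KD within each of the 6 pairs of libraries that share a letter and a day, with 1 point per member and a bar at the median. The medians lie between -0.38 and -0.23 in 5 pairs and at 0.15 in replicate D at 1 day.

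Among the genes around the pathway, Nus1 was the only 1 that passed with all libraries, where 2.34% of all genes tested passed. These genes were in lists of 6, 15, 8, 8 and 8 tested genes. Nus1 is a subunit of the enzyme that draws on farnesyl diphosphate to make dolichol. It was at 92.1, 107, 101 and 95.9 CPM in control KD and 70.2, 75.6, 77.5 and 75.9 CPM in YBX3 KD at 0 day, and at 116 and 103 CPM against 93.0, 86.0 and 77.0 CPM at 1 day. No library overlapped on either day, and Nus1 fell by 0.39 (edgeR, adjusted p = 0.00763; without D -0.41, adjusted p = 0.00266). The other 5 genes of the branches from mevalonate, to longer isoprenoids, dolichol and ubiquinone, did not pass, and without D the partner subunit Dhdds also fell (-0.18, edgeR adjusted p = 0.0344). DESeq2 called both, as did edgeR with the block (Dhdds -0.21, edgeR, adjusted p = 0.026), while without D the block lost Dhdds (edgeR, adjusted p = 0.0581). The list had a median of -0.08 with and -0.07 without D. For this list and the lists and markers that follow, the shares over all genes tested were these. With all libraries 15.6% had an unadjusted p under 0.05 by edgeR, and DESeq2 called 7%. EdgeR called 4.38% lower and 5.4% higher with the block, and 6.68% lower and 5.8% higher without D.

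Of 15 further genes of lipid synthesis, 12 lay lower (median -0.12), edgeR called 0, 4 had an unadjusted p under 0.05 and DESeq2 called 1. The smallest p was that of Hsd17b12, a reductase of fatty acid elongation (-0.22 ± 0.062, edgeR adjusted p = 0.0887). Without D 4 fell, Acss2, Elovl1, Hsd17b12 and Tmem97 (-0.31, -0.22, -0.22 and -0.47, edgeR adjusted p = 0.0208, 0.0484, 0.0223 and 0.00254). Lpin1, a phosphatidate phosphatase, rose without D (0.54, edgeR adjusted p = 0.0104). With the block and all libraries Hsd17b12, Tmem97 and Lpin1 were called (edgeR, adjusted p = 0.0126, 0.0281 and 0.0311), and without D the block lost Elovl1 (edgeR, adjusted p = 0.0788). The gene with the largest p of the 4 that fell, Elovl1, was named after its value was seen.

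The 8 genes of SREBP cleavage and of Insig turnover leaned the other way, with 6 higher and a median of 0.08. With all libraries edgeR and DESeq2 called 0 of them and 1 had an unadjusted p under 0.05, Erlin2, which takes part in Insig degradation (0.23 ± 0.081, edgeR adjusted p = 0.169). Without D, Erlin2 and Erlin1 rose (0.24 and 0.23, edgeR adjusted p = 0.00999 and 0.0231) and Rnf145, a ubiquitin ligase of this group, fell (-0.22, edgeR adjusted p = 0.0333). With the block and all libraries Erlin1 and Erlin2 were called (edgeR, adjusted p = 0.0446 and 0.0451).

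Of the 9 genes of sterol storage, uptake and sensing, 8 had enough counts, Nr1h3 being the exception, and 3 lay lower and 5 higher (median 0.02). EdgeR and DESeq2 called 0 with all libraries, and 1 had an unadjusted p under 0.05, the lipoprotein receptor gene Scarb1 (-0.25 ± 0.098, edgeR adjusted p = 0.219), which fell without D (-0.26, edgeR adjusted p = 0.0436). Scarb1 was also called with the block (edgeR, adjusted p = 0.025), but not with the block and without D (edgeR, adjusted p = 0.0772). In the opposite route, the 8 genes of fatty acid oxidation had 5 lower and 3 higher (median -0.04), with 0 called by edgeR or DESeq2, 0 at an unadjusted p under 0.05, and 0 called by edgeR without D. The smallest p among them was that of Acadl (-0.15 ± 0.080, edgeR adjusted p = 0.419).

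Marker genes moved with some of these differences, and their part in the results was not tested. All 5 proliferation markers lay lower in YBX3 KD (median -0.39): edgeR and DESeq2 called 0 with all libraries and none had an unadjusted p under 0.05, while without D all 5 fell, with Ccnb1 at -0.50 (edgeR, adjusted p = 0.000987). Their summed level, with Top2a the most abundant, was 1729.6, 1562, 1614 and 751 CPM in control KD and 1262, 1253, 1399 and 825 CPM in YBX3 KD at 0 day. At 1 day it was 1746 and 1355 CPM against 1298, 1358 and 297 CPM. Replicate D was thus the lowest of its group for the proliferation markers in all 4 groups, where it was high for most synthesis genes.

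The 5 myoblast markers summed to 582, 608, 602 and 763 CPM in control KD and 685, 678, 601 and 739 CPM in YBX3 KD at 0 day and to 557 and 626 CPM against 535, 572 and 772 CPM at 1 day, Itga7 being the most abundant. All 5 were detected in all libraries, and Myod1, a defining myogenic factor, was low, at 0.601 to 3.32 CPM. EdgeR called 0 of the 5 with all libraries, 1 had an unadjusted p under 0.05, and DESeq2 called 1, Myod1, which rose without D (1.14, edgeR adjusted p = 0.00632) and with the block (1.06, edgeR adjusted p = 0.0155). The 7 markers of muscle differentiation, 6 of them tested, summed to 13.5, 33.8, 14.3 and 5.90 CPM in control KD and 27.7, 23.7, 15.2 and 17.8 CPM in YBX3 KD at 0 day and to 12.8 and 5.77 CPM against 8.14, 66.1 and 15.1 CPM at 1 day, with Tnnt3 the most abundant over all libraries. Their level thus did not separate the days, YBX3 KD replicate C at 1 day was the highest, and edgeR called 0 of 6 with or without D (1 had an unadjusted p under 0.05 in each case; DESeq2 called 0).

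Markers of other lineages varied in level, and Runx2 and Pdgfra were above Myod1 in every library. Of 5 adipocyte markers 2 were tested, and Pparg made up most of a sum of 15.4, 15.3, 16.5 and 27.5 CPM in control KD and 14.3, 16.9, 20.2 and 16.4 CPM in YBX3 KD at 0 day and of 25.3 and 18.9 CPM against 30.1, 24.4 and 33.3 CPM at 1 day. Adipoq and Plin1, which define fat cells, were at 0 in 11 and 10 of 13 libraries. Of 4 fibroblast markers Pdgfra alone was tested, and it made up nearly all of sums of 46.6, 51.1, 40.8 and 69.1 CPM and 42.9, 33.5, 28.7 and 56.2 CPM at 0 day and 46.8 and 60.4 CPM and 33.1, 52.8 and 73.1 CPM at 1 day, Thy1 and Lum being at 0 in 12 and 10 libraries. Of 4 osteoblast markers 3 were tested, and Runx2, which myoblast lines also express, ranged from 83.3 to 135 CPM, with Bglap at or near 0. EdgeR called 0 markers of these 3 lists over both days, none had an unadjusted p under 0.05, and DESeq2 called 0. Without D edgeR again called 0 of them, with 0 at an unadjusted p under 0.05.

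**Figure D5:**
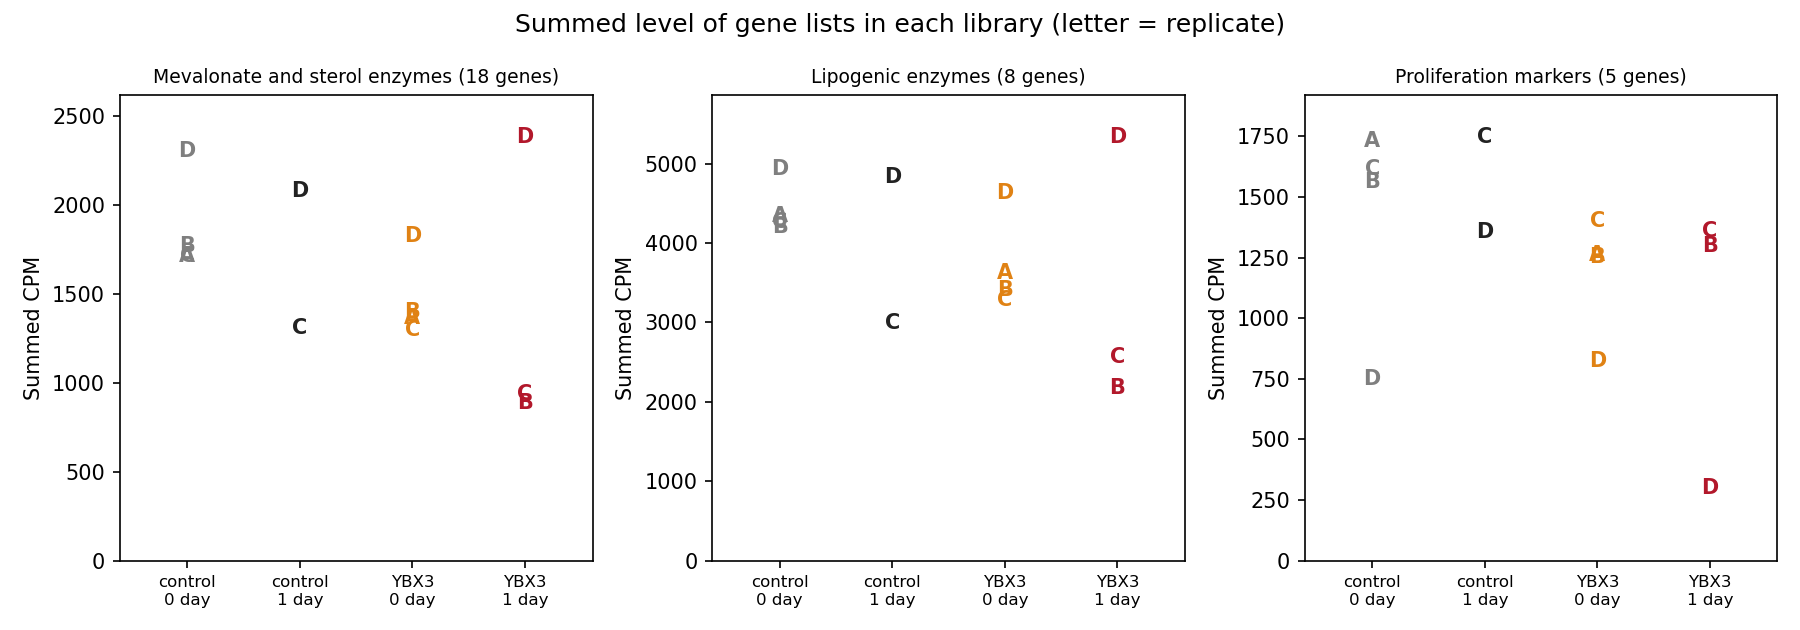
Summed CPM per library of the 18 mevalonate and sterol genes, the 8 lipogenic genes and the 5 proliferation markers, with libraries grouped by siRNA and day and marked by replicate letter. Replicate D is high in the synthesis panels and low in the proliferation panel, most of all in YBX3 KD at 1 day.

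At 0 day, in proliferating myoblasts, Elovl6 fell by 0.60 (standard error 0.099, edgeR adjusted p = 0.0292; 4 against 4 libraries), and 28 of 32 members were lower with a median of -0.29, against -0.004 for all genes tested. Without replicate D, 29 were lower with a median of -0.30, 15 members fell and Hsd17b7 rose. The mevalonate and lipogenic genes had medians of -0.41 and -0.38 with all libraries, the sterol genes -0.28 and the SREBP regulators 0.003. Without D these medians were -0.42, -0.31, -0.29 and -0.16 in the same order.

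Elovl6 was the 1 member called at 0 day, against 0.427% of the genes tested (72 of 16848), and DESeq2 called it alone among the members, where it called 3.09% of the genes (521), close to 1 in 32. Limma-voom called 9 members, against 10.6% of the genes, and DESeq2 with the block 4 (Hmgcs1, Elovl6, Fads1 and Fads2), against 8%. At an unadjusted p under 0.05 edgeR gave 3 members: Elovl6, Fads2 (-0.50 ± 0.21) and Acaca (-0.20 ± 0.090). These were 9.38% of the members, against 11% of the genes tested (1861). At the same cut-off DESeq2 gave 4 members (12.5%, against 12.7% of the genes) and limma-voom 21 (65.6%, against 28.8%). EdgeR gave 13 with the block (40.6%, against 20.7%) and 17 with only the libraries of that day (53.1%, against 12.5%). With the block 1 member was again called, Elovl6 (-0.59, edgeR adjusted p = 0.015), against 1% of the genes called lower and 1.37% higher, and with no low-count filter edgeR called 0. With only the 8 libraries of 0 day edgeR called Idi1 and not Elovl6, against 0.392% of the genes (61 of 15573). The call was lost on leaving out any 1 of 7 libraries: the adjusted p by edgeR was 0.105, 0.0999 and 0.112 without control KD replicates A, B and C, and 0.114, 0.119, 0.0752 and 0.0991 without YBX3 KD replicates A to D, all of 0 day. In those fits the Elovl6 difference ran from -0.64 to -0.53. Without YBX3 KD replicate D at 1 day Idi1 was called as well.

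Without replicate D, the 15 members that fell at 0 day (2.82% of the genes tested) were Acat2, Hmgcs1, Mvk, Idi1 and Fdps of the mevalonate genes, Fdft1, Sqle, Msmo1, Nsdhl, Sc5d and Dhcr7 of the sterol genes, Elovl6, Fads1 and Fads2 of the lipogenic genes, and Stard4. Hsd17b7 was the 1 that rose (0.32 ± 0.055, edgeR adjusted p = 0.014), against 2.67% of genes. With the block as well, 12 fell (1.7% of genes) and 1 rose (1.66%), Mvk, Fdps and Msmo1 being lost. Elovl6 gave -0.68 ± 0.074 (edgeR, adjusted p = 0.00299), Fads2 -0.63 ± 0.057 (adjusted p = 0.00131), Hmgcs1 -0.64 ± 0.087 (adjusted p = 0.0071) and Stard4 -0.45 ± 0.069 (adjusted p = 0.0104) in the same edgeR fit.

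Counting only whether the libraries overlapped at 0 day, all 4 YBX3 KD libraries lay below all 4 control KD libraries for 11 of 32 members, against 4.27% of the genes tested. They were Acat2, Hmgcs1, Mvk, Pmvk, Idi1, Ebp, Sc5d, Acaca, Elovl6, Fads1 and Fads2. With A to C alone, 26 members were fully lower and Hsd17b7 fully higher, against 16.3% of genes fully lower (2745 of 16848) and a nearly equal number fully higher (2717). The 5 members that did overlap among A to C were the regulators Srebf1, Srebf2, Scap and Insig2, and Fasn. The genes around the pathway were in lists of 6, 15, 8, 8 and 8 tested genes. Of these, 0 were called at 0 day by edgeR with all libraries. An unadjusted p under 0.05 was found for 5 of them and for 11% of all genes tested, and DESeq2 called 1. That was Nus1, which also had the smallest p by edgeR (-0.40 ± 0.081, edgeR adjusted p = 0.0617) and passed with the block (-0.40, edgeR adjusted p = 0.0146) together with Tecr, a reductase of fatty acid elongation (-0.38, edgeR adjusted p = 0.0419). Without D 3 fell, Nus1, Tecr and Tmem97 (edgeR, adjusted p = 0.0161, 0.0248 and 0.0166), of which the block lost Tecr.

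At 1 day, after 24 h in differentiation medium, no member passed the test with all libraries, and the 3 with the smallest p were Elovl6, Stard4 and Fads2. Elovl6 differed by -0.56 ± 0.13, Stard4 by -0.64 ± 0.18 and Fads2 by -0.67 ± 0.27 (edgeR, adjusted p = 0.363, 0.442 and 0.59; 2 control KD against 3 YBX3 KD libraries). For Elovl6 and Stard4 the levels given above did not overlap on this day, and for Fads2 only YBX3 KD replicate D overlapped. The median over the 32 members was -0.26, with 27 lower, against 0.02 for all genes tested.

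EdgeR called 0 members at 1 day, where it called 0.0712% of the genes (12 of 16848) and gave 5 members an unadjusted p under 0.05: Elovl6, Stard4, Fads2, Acly and Pmvk. Those 5 were 15.6% of the members, against 7.79% of the genes tested (1312). DESeq2 called 1 member, Elovl6, against 0.855% of the genes (144), and limma-voom 0. DESeq2 with the block called 6, Hmgcs1, Pmvk, Acly, Elovl6, Fads2 and Stard4, against 14% of the genes (2367). With the block edgeR called 0 against 0.0594% of the genes called lower, and 8 members (25%) had an unadjusted p under 0.05, against 27.1% of the genes (4568). At that cut-off limma-voom gave 24 members (75%, against 8.24% of the genes). Without YBX3 KD replicate D of 1 day edgeR gave 26 (81.2%, against 5.86%). Without YBX3 KD replicate B or C of 1 day it gave 2 each (6.25%, against 10.2% and 8.01%). Without replicate D 3 fell, Idi1 (-0.75 ± 0.085), Fads2 (-0.69 ± 0.083) and Acat2 (-0.62 ± 0.086, edgeR adjusted p = 0.0273, 0.0273 and 0.0425), against 0.0695% of genes called lower. That fit has 1 control KD library at 1 day, which is assumed to vary like the other groups, and with the block as well 0 members were called (0.0116% of genes lower).

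The median at 1 day depended on single libraries. It was 0.06 without control KD replicate D, where 14 members were lower, -0.47 without control KD replicate C, -0.74 without YBX3 KD replicate D, -0.03 without YBX3 KD replicate B and -0.09 without YBX3 KD replicate C of 1 day, and -0.46 without all of replicate D. By limma-voom it was -0.63. Without YBX3 KD replicate D of 1 day 1 member was called, Idi1. The list medians with all libraries were -0.36 for the mevalonate, -0.17 for the sterol and -0.28 for the lipogenic genes, and without D -0.62, -0.43 and -0.43. Of the genes around the pathway edgeR and DESeq2 called 0. An unadjusted p under 0.05 was found for 4 of them and for 7.79% of all genes tested. Nus1 again had the smallest p (-0.36 ± 0.10, edgeR adjusted p = 0.442). Without D edgeR also called 0 of them, with 6 at an unadjusted p under 0.05.

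Whether the effect of YBX3 KD differed between the days was tested by the interaction, and no member passed. The fitted differences between the days were positive for 20 and negative for 12 members, with a median of 0.03, against -0.0004 for all genes. This median had no stable sign: it was -0.45 (30 negative) without YBX3 KD replicate D and -0.14 (23) without control KD replicate C of 1 day. It was 0.38 (5 negative) without control KD replicate D, 0.26 (6) without YBX3 KD replicate B and 0.20 (7) without YBX3 KD replicate C of 1 day, and it lay between 0.01 and 0.15 without any single library of 0 day, at 0.15 without YBX3 KD replicate D. By limma-voom it was -0.33 (29 negative), with the block 0.11 (8). EdgeR called 0 members and 0% of the genes tested, with 0 members and 444 genes at an unadjusted p under 0.05. DESeq2 and limma-voom called 0 members, and edgeR with the block called 0 members and 0% of the genes. With the block 1 member (3.12%) had an unadjusted p under 0.05, against 11% of the genes (1859). The 3 members with the smallest p were Srebf1 (-0.40 ± 0.25), Stard4 (-0.38 ± 0.23) and Insig2 (0.32 ± 0.29), at unadjusted p of 0.132, 0.134 and 0.3 by edgeR and an adjusted p of 1 each.

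Leaving out replicate D leaves 1 control KD library at 1 day. In that fit Idi1 was at -0.33 ± 0.10 and Mvd at -0.45 ± 0.15, 2 members named after their values were seen. These sizes rest on that 1 control KD library and do not establish a difference between the days. The value of Srebf1 turned to 0.14 without D and to 0.008 without control KD replicate D of 1 day, so its direction rested on that library. The median of the members was -0.09 without D, with 24 negative. Of the genes around the pathway 0 were called by edgeR or DESeq2, and 1 had an unadjusted p under 0.05, as did 2.64% of all genes tested. The 1 gene was Mbtps2, a protease of SREBP cleavage (0.36 ± 0.14, edgeR adjusted p = 1). Without D edgeR called 0 of them, with 1 at an unadjusted p under 0.05.

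Between 0 and 1 day no synthesis gene passed the test with all 13 libraries, 26 of 32 lay lower at 1 day, and the median was -0.10 against 0.002 for all genes. Single libraries moved it: it was 0.0045 (16 negative) without YBX3 KD replicate B, -0.01 (19) without YBX3 KD replicate C, -0.34 (30) without YBX3 KD replicate D, -0.01 (17) without control KD replicate C and -0.18 (29) without control KD replicate D, all of 1 day. It was -0.06 (23 negative) without control KD replicate D and -0.05 (21) without YBX3 KD replicate D of 0 day, -0.24 with the block and -0.35 by limma-voom. Without replicate D, 24 of 32 fell at 1 day and the median was -0.45. Fdps, Scd2 and Insig1 were among those with the largest differences without D (-0.78, -0.85 and -0.73). This comparison is the change from fetal bovine to horse serum and 1 day of differentiation.

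With all libraries edgeR called 0 members and 0% of the genes tested, with 0 members and 477 genes at an unadjusted p under 0.05, and DESeq2 and limma-voom called 0 members. At an unadjusted p under 0.05 limma-voom gave 25 members (78.1%, against 12.3% of the genes) and DESeq2 1 (3.12%, against 3.78%). With the block edgeR called 0 members, 0% of genes lower. In that fit 6 members (18.8%) had an unadjusted p under 0.05, against 4.74% of the genes (799). The smallest p were those of Srebf1 (-0.27 ± 0.13), Mvk (-0.22 ± 0.12) and Stard4 (-0.19 ± 0.12), at an unadjusted p of 0.0584, 0.0953 and 0.143 by edgeR and an adjusted p of 1 each. The Srebf1 levels given above were lower at 1 day in 4 of 5 libraries than in the same letter and treatment at 0 day, the exception being control KD replicate D.

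Without replicate D the 24 members that fell compare with 0.504% of the genes called lower (87 of 17271). With the block as well 12 fell, against 0.174% of genes. Those 12 were Acat2, Mvk, Idi1, Fdps, Lss, Cyp51, Msmo1, Nsdhl, Dhcr7, Insig1, Scd2 and Fads2. The 24 were all 7 mevalonate genes (median -0.47), 10 of 11 sterol genes (median -0.53, Ebp being the exception), 3 of 5 regulators (Srebf1, Srebf2 and Insig1), 3 of 8 lipogenic genes (Scd2, Fads1 and Fads2) and Stard4. Scd2 gave -0.85 ± 0.10, Fdps -0.78 ± 0.090, Lss -0.71 ± 0.065 and Fads2 -0.59 ± 0.048 (edgeR, adjusted p = 0.00525, 0.00367, 0.00183 and 0.00111). Hsd17b7, which rose in YBX3 KD without D, also fell at 1 day (-0.30 ± 0.050, edgeR adjusted p = 0.0259), but this call was lost with the block. Elovl6 was level between the days (0.03 ± 0.061, edgeR adjusted p = 0.915), and Scap, Insig2, Acly, Acaca, Fasn and Scd1 did not pass.

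The steps from 0 to 1 day were also taken within each letter and treatment. In control KD replicate C 29 of 32 members were lower at 1 day (median -0.37), and in YBX3 KD replicates B and C 31 and 29 were (medians -0.55 and -0.40). In replicate D, 16 were lower and 16 higher in control KD (median -0.03), and 6 were lower and 26 higher in YBX3 KD (median 0.28). YBX3 KD replicate D was thus the only 1 of 5 steps in which most members were higher at 1 day. The 3 steps without D hold 1 in control KD and 2 in YBX3 KD. The summed proliferation markers given above were lower at 1 day than at 0 day in YBX3 KD replicate D (297 against 825 CPM) and C (1358 against 1399 CPM). They were higher at 1 day in control KD replicates C (1746 against 1614 CPM) and D (1355 against 751 CPM) and in YBX3 KD replicate B (1298 against 1253 CPM).

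Of the genes around the pathway edgeR and DESeq2 called 0 between the days with all libraries. An unadjusted p under 0.05 was found for 5 of them and for 2.83% of all genes tested. The smallest p was that of Cpt1a, which brings fatty acids into mitochondria for oxidation (0.33 ± 0.11, edgeR adjusted p = 1). It was at 114, 113, 107 and 162 CPM in control KD and 110.5, 102, 98.2 and 130.0 CPM in YBX3 KD at 0 day, and at 156 and 134 CPM against 143, 151 and 147 CPM at 1 day. Without D it rose (0.49, edgeR adjusted p = 0.00219), as did Rnf145 (0.34, edgeR adjusted p = 0.0308), and Acsl3, an acyl-CoA synthetase, fell (-0.75, edgeR adjusted p = 0.00861). Those 3 were the only genes of these lists that edgeR called between the days without D.

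The spans of 12 of the 32 members overlap that of another tested gene, and their values are less certain where reads fall in the shared stretch. The study calls the libraries stranded, but its methods name both a stranded mRNA kit and a TruSeq RNA preparation kit. The strand setting of the counting is not given in the sources used here. The longest shared stretches with a protein-coding gene were those of Cyp51 with Akap9 (7895 bases), Acly with Odad4 (4324), Acat2 with Tcp1 (1700) and Fdft1 with Ctsb (1184), each on opposite strands. Tm7sf2 and Vps51 share 532 bases on the same strand. Elovl6, Fads1, Fads2, Hmgcs1, Hsd17b7 and Stard4 overlap no other tested gene.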

How the data were processed

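Poly(A) RNA of 13 C2C12 libraries was sequenced by the authors, who call the libraries stranded. The deposited values are estimated counts per Ensembl gene, which the authors made with Salmon on GRCm39 and Gencode M30. They came as whole numbers; the version of Salmon and the rounding step are not given in the sources used here. Symbols came from GENCODE vM39 (54969 of 55642 identifiers) and promoters from RefSeq.

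Counts were tested in R 4.3.3 with edgeR 4.0.16 (TMM, filterByExpr on the 4 groups, quasi-likelihood test), which kept 16848 of 30314 genes with a count. The effect of YBX3 KD over both days and that of day came from 1 additive fit, the others from a fit with 1 mean per group. DESeq2 1.42.0, limma 3.58.1 (voom), other filters and factors, other thresholds and leaving out each library were alternatives, and, once the data had been seen, DESeq2 and the block were also run without replicate D. Differences within pairs used log2(CPM + 0.5). The fits were tested on simulated data. No pair of libraries within a group was a duplicate.

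Letters come from the library descriptions. Deviations from the group means correlated above 0.1 in 16 of 16 pairs of libraries with the same letter from different groups (median 0.338), in 11 of 46 with other letters and in 8 of 16 with the same number in their titles, so the letters were taken to pair the libraries. In control KD at 1 day, with 2 libraries, the deviations mirror each other, so part of these counts is fixed by construction. The replicate block was fitted as an alternative, as the study's methods state none (5 members called over both days with the block, 1 without).

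Members and lists were chosen with earlier results of these data known. All members are named, with values in every library for those with an adjusted p under 0.05 in a comparison, or the 3 with the smallest p where a comparison had none, and for the SREBP, Insig and Scap genes. Other genes are named where they passed, at most 3 each way by p, or else the 1 with the smallest p. Values in every library for further members were chosen after those values were seen.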

Additional observations from a re-analysis of the deposited data

Results flagged for a closer look

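The members and Ybx3 gave 66 groups of 4 libraries at 0 day, and in 12 of them the highest or lowest library stood far from the others, with a gap to its nearest neighbour of over 0.829 of the group's whole range. Chance gives about 1 in 20 such groups. In 10 of the 12 that library was replicate D, always as the highest. In control KD these were Mvd (51.5 CPM, gap 0.9504), Fdft1 (160 CPM, gap 0.9743), Hsd17b7 (63.0 CPM, gap 0.9565), Scd1 (962 CPM, gap 0.8909) and Fads1 (227 CPM, gap 0.8513). In YBX3 KD they were Msmo1 (108 CPM, gap 0.8954), Nsdhl (83.6 CPM, gap 0.9786), Hsd17b7 (69.6 CPM, gap 0.8996), Insig1 (80.0 CPM, gap 0.8509) and Acly (294 CPM, gap 0.9264). The other 2 were in control KD, where Mvk was highest in replicate C (42.5 CPM, gap 0.9588) and Fasn lowest in replicate B (589 CPM, gap 0.9031). The cause was not tested.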

How the results depend on the processing

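Elovl6 stayed lower and under an adjusted p of 0.05 over both days in all 25 settings of the test, with every left-out library among them. Most other calls by edgeR depended on replicate D, and why D stood apart was not tested. With all libraries limma-voom called 20 members over both days and DESeq2 with the block 15. At 1 day 2 control KD libraries limit the test. The single-gene values over both days gave the same call in 637 cases, a call that edgeR with all libraries and no block did not make in 120 and the opposite sign in 11.

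Over both days, where edgeR called 1 member and 394 genes, the counts of members and genes called were 5 and 1179 by DESeq2, 20 and 3088 by limma-voom, 5 and 1647 with the replicate block, 15 and 2961 by DESeq2 with the block, 24 and 2155 without replicate D, 27 and 3092 without D by DESeq2, 23 and 2052 without D with the block, and 0 and 19 under the study's thresholds. With no low-count filter 180 genes were called. Leaving out single libraries gave 1 to 8 members, the 8 with 400 genes, and 172 to 857 genes, the 857 with 2 members.

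At 0 day, where edgeR called 1 member and 72 genes, limma-voom called 9 and 1782, no low-count filter gave 0 and 37, DESeq2 with the block 4 and 1348, without D 16 and 948, without D by DESeq2 22 and 1879, without D with the block 13 and 580, and the study's thresholds 0 and 5. DESeq2 called 521 genes, the block gave 399 and a block for the title number 43. With only the libraries of that day edgeR called 61 genes and 1 member, Idi1 in place of Elovl6. Leaving out single libraries gave 0 to 2 members and 20 to 95 genes, the 95 with 2 members.

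At 1 day, where edgeR called 0 members and 12 genes, DESeq2 called 1 and 144, DESeq2 with the block 6 and 2367, edgeR without D 3 and 21, and DESeq2 without D 16 and 296. Genes alone were 2 with no low-count filter, 0 with the title number as block, 0 with only the libraries of that day, 5 without D with the block and 0 under the study's thresholds. Leaving out single libraries gave 0 to 1 members, the 1 with 7 genes, and 0 to 15 genes, the 15 with 0 members.

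For the difference between the days, where edgeR called 0 members and 0 genes, the genes were 2 by DESeq2, 1 by limma-voom, 21 by DESeq2 with the block, 2 without D, 17 without D by DESeq2 and 1 without D with the block, and 0 to 1 on leaving out single libraries. Between the days edgeR called 0 members and 0 genes, and the counts were 24 and 161 without D, 25 and 518 without D by DESeq2 and 12 and 60 without D with the block. Genes alone were 2 by DESeq2, 33 by limma-voom, 23 by DESeq2 with the block and 0 to 1 on leaving out single libraries.

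Signs turned for 5 members over both days, of which DESeq2 without D called Mvd and Scd2, and no other setting called any. Mvd ran from -0.54 to 0.15 over the left-out libraries, Tm7sf2 from -0.51 to 0.16, Srebf1 from -0.21 to 0.0045, Scap from -0.0071 to 0.04997 and Scd2 from -0.39 to 0.0064. Mvd was above 0 without control KD replicate D of 0 day (0.15) or YBX3 KD replicate C of 1 day (0.0072), and Tm7sf2 without control KD replicate D of 0 day (0.16), YBX3 KD replicate C of 0 day (0.02) and YBX3 KD replicates B and C of 1 day (0.02 and 0.03). Srebf1 and Scd2 turned without control KD replicate D of 1 day. Scap was -0.0038 without all of D and -0.000245 without D by DESeq2. The difference of Srebf1 between the days ran from -0.70 to 0.0083 over the left-out libraries, and was 0.14 without D, 0.14 without D by DESeq2 and 0.12 without D with the block.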
